A study of Mus musculus with 5 samples.

Results

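The 10 genes described here encode the ligands, receptors and effectors through which osteoclasts, the cells that resorb bone and mineralized cartilage, are made: *Tnfsf11*, *Tnfrsf11b*, *Tnfrsf11a*, *Csf1*, *Csf1r*, *Il34*, *Ctsk*, *Acp5*, *Dcstamp* and *Ocstamp*. They were chosen by name from the 29818 genes of the deposited matrices, and all 10 were present. Single cells had been isolated from the femoral and tibial growth plate cartilage of 5 littermate pups, labelled C57BL/6J, and captured as 1 BD Rhapsody library per pup. Pups 1 and 2 were wild type (WT). Pups 3, 4 and 5 were *Col2a1-Cre* driven, heterozygous conditional knock-in mutants that carried *Trpv4* p.R594H, an activating change in a calcium channel. The sample labels give the age as postnatal day 5, whereas the series design text and the study's methods give day 3. By the study's methods the Cre strain had been made on a mixed B6SJL background and then crossed to C57BL/6J. The *Col2a1-Cre* transgene acts in cells that express type II collagen or descend from cells that did, so osteoblasts and macrophages of the mutant pups need not carry the recombined allele. Whether the WT pups carried the Cre transgene is not given in the sources used here.

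Osteoclasts arise by fusion of precursors of the monocyte and macrophage lineage, and they depend on a pair of signals. CSF1 acts through its receptor CSF1R to keep the precursors alive, and IL-34 is an alternative ligand of the same receptor. RANKL, the product of *Tnfsf11*, binds RANK, the product of *Tnfrsf11a*, and drives the osteoclast program, while osteoprotegerin, the product of *Tnfrsf11b*, is a secreted decoy that binds RANKL and blocks it. In the growth plate, osteoclasts and related cells clear calcified cartilage below the hypertrophic zone, where bone replaces it.

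After filtering, 82516 cells remained, between 13814 and 19133 per pup, from matrices that held between 117746735 and 183322632 unique molecular identifiers (UMIs) per pup. A UMI marks 1 captured transcript, so PCR copies are counted once. Although the labels name the cells chondrocytes, 51.7% of them passed the marker threshold for that class. Of the other classes, 506 cells were osteoblasts, 9245 perichondrial cells, 11744 tendon and ligament cells, 659 macrophages and 22 osteoclasts, and 4222 cells that passed for more than 1 class, with no order of precedence between these, were left out of all of them. No member of the set was among the markers that set a class. The classes are ranges of a marker density and not sharp types: 8277 cells lay within 2-fold of the density threshold for chondrocytes, 4580 for perichondrial cells, 208 for osteoblasts and 10 for macrophages. The osteoblasts were few in the WT pups, 23 in pup 1 and 78 in pup 2, against 253, 92 and 60 in pups 3, 4 and 5. *Xist*, which is transcribed from the inactive X chromosome, was detected in 89.8% and 88.4% of the cells of pups 3 and 4. It was found in at most 0.174% of the cells of any other pup, so both WT pups and pup 5 lacked it. *Ddx3y*, a gene of the Y chromosome, was found in 67.6%, 70.1% and 66.3% of the cells of pups 1, 2 and 5. In pups 3 and 4 it was found in 0.758% and 0.492%. Sex, read from these genes, was thus partly confounded with genotype. Median depth was 9261 and 8521 UMIs per cell in the WT pups and 6657, 6000 and 7016 in the mutant pups. The part of sex or depth in the genotype comparisons was not tested except by the alternatives named. In chondrocytes *Trpv4* was at 227 and 157 CPM (UMIs per 1000000 UMIs of the class) in the WT pups and at 154, 222 and 217 CPM in the mutant pups. These 3′ counts do not tell the mutant allele from the WT allele and so do not check the genotype labels. Of 84382 barcodes, 56 were found in more than 1 pup.

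All levels are given as CPM, with UMIs summed over the cells of a class within each pup. The counts are tags from the 3′ ends of transcripts and are not scaled by length, so levels are compared between classes and pups and not between genes. Fold changes between classes come from edgeR's quasi-likelihood test with the pup as a block, with Benjamini-Hochberg adjustment over all genes tested, and are given as log2 values with their standard errors (SE).

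**Figure D1:**
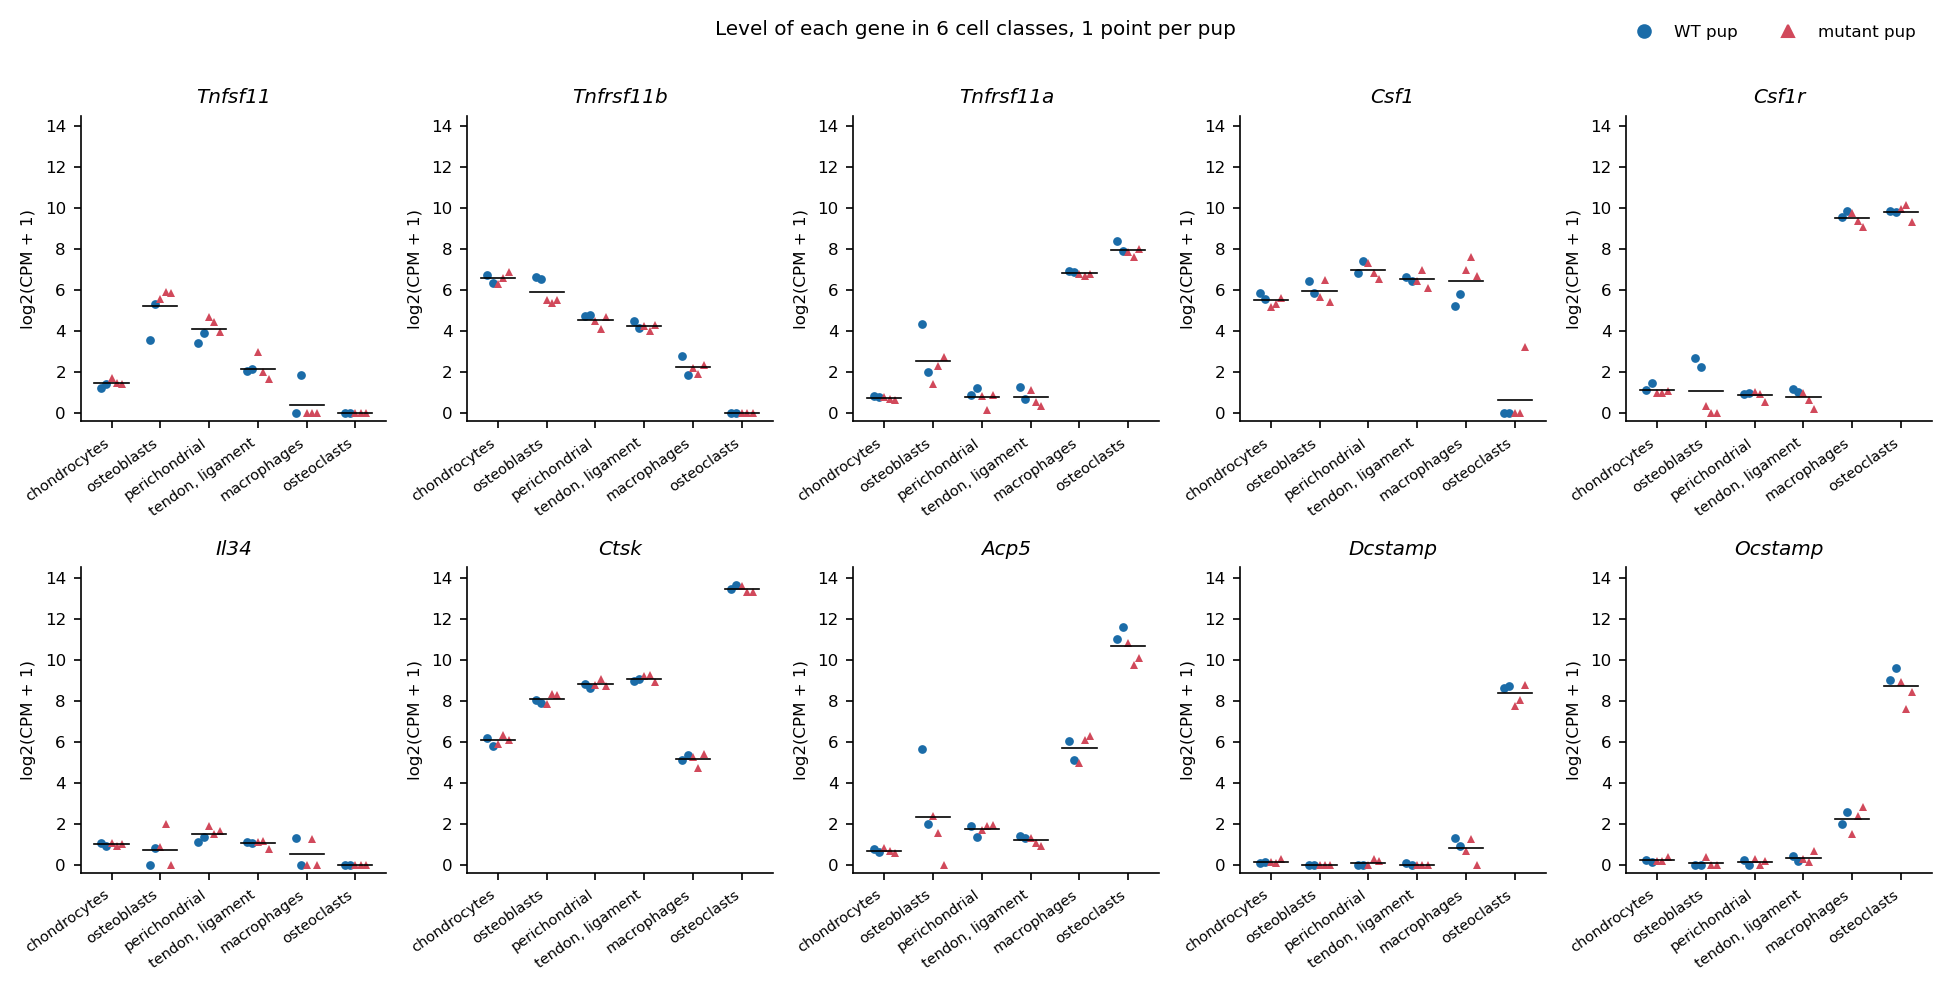
Each panel shows the level of 1 gene, as log2(CPM + 1), in 6 cell classes, with 1 point for each of the 2 WT pups (circles) and 3 mutant pups (triangles) and a line at the mean of the 5. *Tnfsf11* is highest in osteoblasts and perichondrial cells, *Tnfrsf11b* in chondrocytes and osteoblasts, the receptors *Tnfrsf11a* and *Csf1r* in macrophages and osteoclasts, and *Dcstamp* and *Ocstamp* in osteoclasts.

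The ligand *Tnfsf11* (chromosome 14, 78277445 to 78308043 on the minus strand of GRCm38) was, among the connective tissue classes, highest in osteoblasts and next in perichondrial cells, and its level in chondrocytes was low. In osteoblasts it was at 10.9 and 38.5 CPM in WT pups 1 and 2 and at 46.8, 59.2 and 56.8 CPM in mutant pups 3, 4 and 5, for a mean of 42.5 ± 19.5 (SD, n = 5). In perichondrial cells, the fibroblast-like layer around the cartilage, it was at 9.62 and 13.9 CPM in the WT pups and at 24.6, 20.6 and 14.6 CPM in the mutant pups. Chondrocytes held 1.36 and 1.70 CPM in the WT pups and 2.24, 1.80 and 1.72 CPM in the mutant pups. The order of the classes, osteoblasts over perichondrial cells over chondrocytes, was the same in every pup. The level was 4.68 ± 0.21 log2 units higher in osteoblasts than in chondrocytes (adjusted p = 5.64e-14) and 3.21 ± 0.16 higher in perichondrial cells than in chondrocytes (adjusted p = 1.23e-13). Osteoblasts exceeded perichondrial cells by 1.47 ± 0.19 log2 units (adjusted p = 2.38e-06).

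Because the classes differ in size, the place of the highest level was not the place of most *Tnfsf11* transcripts. Of its 3584 UMIs, 33.1% were counted in perichondrial cells, 21.6% in chondrocytes, 21.1% in cells of no class, 9.32% in tendon and ligament cells and 8.96% in osteoblasts. The share in chondrocytes ranged from 12.7% to 36.5% among pups. Macrophages held 6 UMIs in all, every one of them in pup 2, and no osteoclast held any. Lymphoid cells, which include T cells that are known to make RANKL, held 46 UMIs in 100 cells. Their level was 21.4 CPM in pup 1, 261.4 in pup 2 and 68.6 in pup 3, and 0 in pups 4 and 5, where 1 and 4 such cells had been captured.

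Detection in single cells followed the same order. A *Tnfsf11* UMI was found in 27.9% of osteoblasts (95% Clopper-Pearson interval 24.0 to 32.0%), in 7.08% of perichondrial cells (6.57 to 7.63%) and in 1.38% of chondrocytes (1.27 to 1.49%). In macrophages, which are not a known main source, the share was 0.607% (0.166 to 1.55%). It serves here as a rough guide to what free RNA can give, which was not tested. Median depth was 12812, 6609, 8272 and 8077 UMIs per cell in the same order. With every cell thinned to 3000 UMIs, the shares were 12.9%, 3.66%, 0.584% and 0.154%. The thinned share in chondrocytes lay within the interval of the macrophage share, 0.0039 to 0.855%, which rests on 1 positive cell, in pup 2. Over all chondrocytes, detection was therefore not above that of macrophages beyond counting error. The *Prg4*-high cells described next were at 1.40% (1.16 to 1.67%) after thinning. Before thinning, a UMI was found in 0.423% of pericytes (0.087 to 1.23%) and in 0 of 293 erythroid cells (0 to 1.25%), both below chondrocytes. After thinning their upper limits were 0.526% and 1.34%, against 0.513 to 0.661% in chondrocytes. The outcome thus depends on the class taken as background. By level, macrophages differed from chondrocytes by -1.12 ± 0.70 log2 units, which did not pass the test (adjusted p = 0.157). Without WT pup 2, the only pup with *Tnfsf11* UMIs in macrophages, the macrophages were lower by the test (adjusted p = 0.00847). These intervals, like the others given, cover counting error only.

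Within the cartilage, *Tnfsf11* was highest in the *Prg4*-high chondrocytes, which express lubricin as cells of the joint surface do. In the 8880 such cells it was at 2.76 and 6.63 CPM in the WT pups and at 5.87, 5.28 and 5.03 CPM in the mutant pups. The other chondrocytes, 32911 cells, held 1.13 and 0.945 CPM in the WT pups and 1.79, 1.33 and 1.23 CPM in the mutant pups. The *Prg4*-high cells were the higher in each of the 5 pups. This contrast was noticed in the data and was not tested.

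The decoy *Tnfrsf11b* (chromosome 15, 54250619 to 54278484, minus strand) was counted mostly in the cartilage. Chondrocytes held 82.9% of its 51673 UMIs, and between 74.0% and 89.9% in each pup. Their level was 107 and 80.4 CPM in the WT pups and 77.6, 96.3 and 118 CPM in the mutant pups (95.8 ± 17.2, SD, n = 5), with the genotypes interleaved. Perichondrial cells held 25.2 and 26.9 CPM in the WT pups and 21.3, 16.4 and 24.7 CPM in the mutant pups, which was 2.06 ± 0.15 log2 units below chondrocytes. A *Tnfrsf11b* UMI was found in 44.0% of chondrocytes, 25.9% of osteoblasts and 11.4% of perichondrial cells, and after thinning in 22.2%, 8.17% and 5.67%.

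Osteoblasts were intermediate and less certain. Their level was 98.5 and 92.0 CPM in the WT pups and 44.0, 40.5 and 44.0 CPM in the mutant pups. The difference from chondrocytes was -0.54 ± 0.18 log2 units (adjusted p = 0.0204). It was no longer called without any 1 of the mutant pups (adjusted p of 0.0944, 0.106 and 0.123) or with marker thresholds at 2 times their value (adjusted p = 0.493). Osteoblasts stood 1.51 ± 0.20 log2 units above perichondrial cells. Without the 1 osteoblast with most *Tnfrsf11b* UMIs in each pup their level was 41.1 and 48.4 CPM in the WT pups and 37.8, 29.0 and 30.4 CPM in the mutant pups, still above the perichondrial level of each pup but by less. Macrophages lay at 3.81 CPM on average and osteoclasts held no *Tnfrsf11b* UMI.

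The number of *Tnfsf11* UMIs for each *Tnfrsf11b* UMI brings the ligand and its decoy together. Macrophages held 6 *Tnfsf11* and 20 *Tnfrsf11b* UMIs in all, and it was not computed for them. Among chondrocytes, tendon and ligament cells, perichondrial cells and osteoblasts, it was lowest in chondrocytes. It ranged from 0.0127 to 0.0289 among the 5 pups in chondrocytes, from 0.117 to 0.393 in tendon and ligament cells, from 0.382 to 1.26 in perichondrial cells and from 0.111 to 1.46 in osteoblasts. The highest pup in chondrocytes was thus below the lowest pup of each of the other classes named, and those classes overlapped one another. The ratio is of tag counts and is not a ratio of molecules of protein. Pooled over pups, 26 of 141 osteoblasts with a *Tnfsf11* UMI also had a *Tnfrsf11b* UMI. Since pups differed in both genes, this was not compared with the other osteoblasts.

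**Figure D2:**
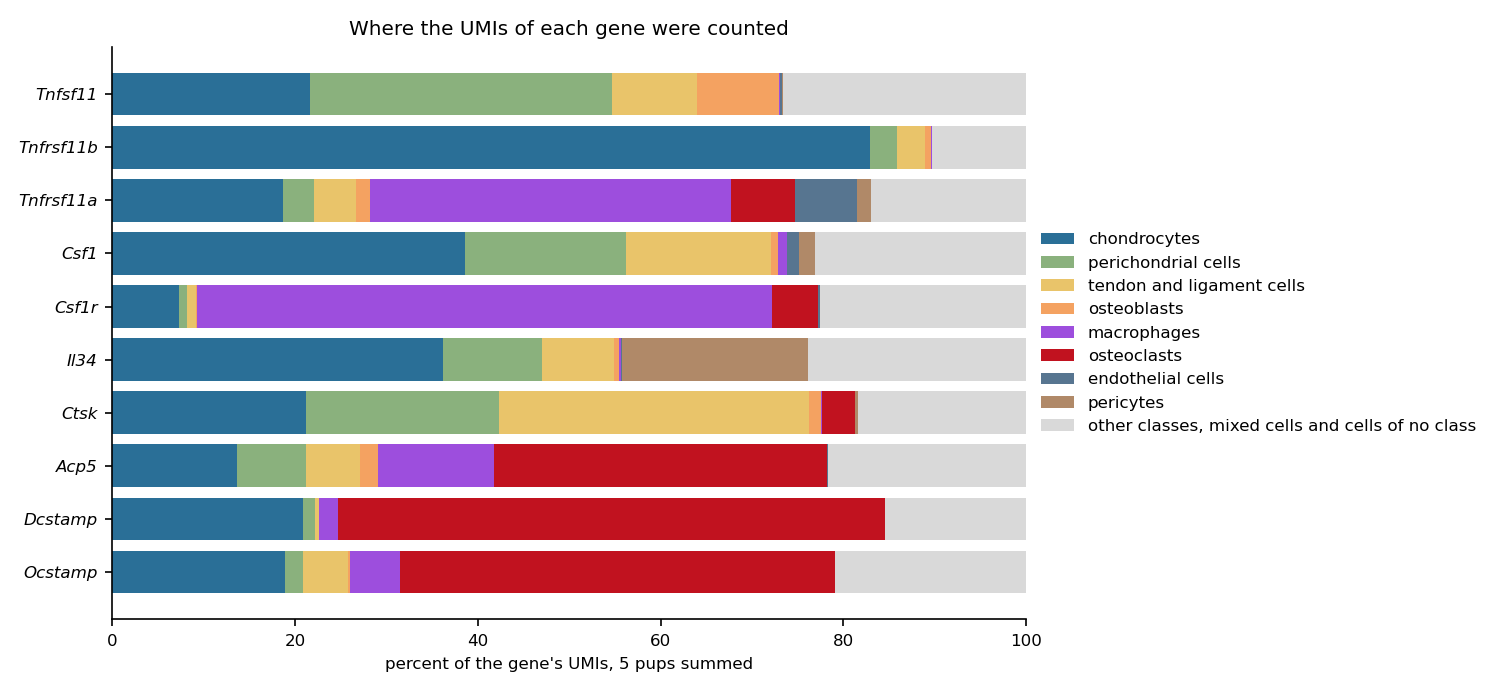
Bars give, for each gene, the percent of its UMIs, summed over the 5 pups, that were counted in each class, with other classes, mixed cells and cells of no class in grey. Chondrocytes hold 82.9% of *Tnfrsf11b* UMIs and macrophages 62.9% of *Csf1r* UMIs, and the 22 osteoclasts hold 59.8% of *Dcstamp* and 47.7% of *Ocstamp* UMIs.

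*Csf1* (chromosome 3, 107741048 to 107760469, minus strand), the survival factor of the lineage, was counted in every stromal class. Perichondrial cells held 114 and 167 CPM in the WT pups and 158, 112 and 91.9 CPM in the mutant pups, a mean of 129 ± 32.4 (SD, n = 5). Chondrocytes held 57.0 and 45.9 CPM in the WT pups and 35.2, 39.3 and 48.1 CPM in the mutant pups. Perichondrial cells were the higher in each pup, by 1.503 ± 0.285 log2 units (adjusted p = 3.98e-04). Endothelial cells, at 187 CPM on average, and pericytes, the contractile cells of small vessels, at 183 CPM, were above both, and the highest mean, 229 CPM, was in the mast cells, of which there were 51. After thinning, a *Csf1* UMI was found in 25.3% of perichondrial cells, 13.5% of osteoblasts and 10.1% of chondrocytes. In erythroid cells, which should lack the gene, the share was 5.49% (95% interval 3.11 to 8.90%), with a median of 5037 UMIs per cell before thinning. That interval lies below the 9.86 to 10.4% of chondrocytes, by a small margin. Osteoblasts held 84.9 and 56.6 CPM in the WT pups and 49.9, 87.9 and 41.2 CPM in the mutant pups. They did not differ from chondrocytes by the test (0.50 ± 0.37, adjusted p = 0.295, 95% interval -0.23 to 1.23). The deficit of osteoblasts against perichondrial cells, -1.01 ± 0.36 log2 units (adjusted p = 0.0393), was lost without WT pup 2 (0.129), mutant pup 3 (0.180) or mutant pup 5 (0.0909), without the low-count filter (0.0693), and at raised marker thresholds (0.117). Macrophages, whose values are given with the genotypes, exceeded chondrocytes by 0.76 ± 0.35 log2 units, which missed the threshold (adjusted p = 0.0624) and passed it in DESeq2 (0.0178), without WT pup 1 (0.0163) and without WT pup 2 (0.04996). Of the 53037 *Csf1* UMIs, 38.6% were counted in chondrocytes, 17.6% in perichondrial cells and 15.8% in tendon and ligament cells.

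*Il34* (chromosome 8, 110741829 to 110805924, minus strand) was highest in pericytes. They held 39.8 and 34.98 CPM in the WT pups and 44.8, 62.3 and 79.8 CPM in the mutant pups, with both WT pups below the mutant pups, a difference that was not tested. The 709 pericytes held 20.3% of its 1217 UMIs, and a UMI was found in 24.3% of them. In perichondrial cells it was at 1.19 and 1.59 CPM in the WT pups and at 2.67, 1.86 and 2.17 CPM in the mutant pups, against a mean of 0.987 CPM in chondrocytes, a difference of 0.94 log2 units (adjusted p = 0.00191). In the annotation the antisense genes *Gm15894* and *Gm15895* overlap *Il34*, and whether the counting used strand is not given in the sources used here, so reads of these genes cannot be told apart.

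The receptors marked the precursor lineage. *Tnfrsf11a* (chromosome 1, 105780718 to 105847981, plus strand), which encodes RANK, was at 121 and 116 CPM in macrophages of the WT pups and at 110, 102 and 108 CPM in those of the mutant pups (112 ± 7.20, SD, n = 5). Macrophages exceeded chondrocytes by 7.02 ± 0.20 log2 units, osteoblasts by 4.41 ± 0.29 and perichondrial cells by 6.76 ± 0.23. Endothelial cells came next among the classes of at least 50 cells, at 29.5 and 47.3 CPM in the WT pups and 20.5, 21.1 and 42.0 CPM in the mutant pups. A *Tnfrsf11a* UMI was found in 54.3% of macrophages, 12.4% of endothelial cells and 0.558% of chondrocytes.

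*Csf1r*, like *Tnfrsf11a*, was highest in osteoclasts and macrophages. In macrophages it was at 765 and 939 CPM in the WT pups and at 852, 651 and 536 CPM in the mutant pups (749 ± 160, SD, n = 5). The level in macrophages was 8.93 ± 0.17 log2 units above that in chondrocytes, where the mean was 1.21 CPM, and 9.42 ± 0.20 above that in perichondrial cells. Macrophages held 62.9% of the 7556 UMIs and 97.7% of them had at least 1. In the annotation *Hmgxb3* overlaps *Csf1r* on the other strand. Summed over all cells, *Csf1r* ranged from 4.97 to 17.3 CPM, with pup 2 highest and pup 5 lowest. In such a sum, fewer macrophages and less *Csf1r* per macrophage cannot be told apart. The macrophage share of cells was 1.36% in pup 2 and 0.463% in pup 5.

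In the fit over 4 classes 9 of the 10 genes passed the low-count filter, and *Dcstamp* did not. Against chondrocytes, 5 of 9 were called in osteoblasts (4 higher, 1 lower, where 50.1% of all genes tested were called), 6 of 9 in perichondrial cells (5 higher, 1 lower, 65.5% of all genes) and 6 of 9 in macrophages (4 higher, 2 lower, 73.1%). Against perichondrial cells, 5 of 9 were called in osteoblasts (41.9% of all genes) and 8 of 9 in macrophages (69.7%), and against osteoblasts 7 of 9 in macrophages (58.9%). Whether the members' shares differ from those of all genes was not tested.

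The effectors of resorption behaved in separate ways. *Ctsk* (chromosome 3, 95499256 to 95509362, plus strand), the collagen-degrading protease of osteoclasts, was also a gene of fibroblast-like cells. Tendon and ligament cells held 542 ± 54.0 CPM (SD, n = 5) and 33.9% of its 138974 UMIs. Perichondrial cells held 454 and 392 CPM in the WT pups and 436, 529 and 414 CPM in the mutant pups. In osteoblasts it was at 260 and 239 CPM in the WT pups and at 228, 316 and 307 CPM in the mutant pups. Chondrocytes held 71.0 and 54.5 CPM in the WT pups and 59.0, 80.1 and 67.8 CPM in the mutant pups. Every perichondrial value lay above every osteoblast value, and every osteoblast value above every chondrocyte value. Perichondrial cells exceeded chondrocytes by 2.75 ± 0.11 log2 units and osteoblasts did so by 2.11 ± 0.11, while macrophages, at 35.5 CPM, lay 1.14 ± 0.14 below chondrocytes. After thinning, a *Ctsk* UMI was found in 63.6% of perichondrial cells, 50.2% of osteoblasts and 18.9% of chondrocytes.

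*Acp5* (chromosome 9, 22126727 to 22135711, minus strand), which encodes the tartrate-resistant acid phosphatase used to stain osteoclasts, was nearly absent from cartilage. In macrophages it was at 65.6 and 33.6 CPM in the WT pups and at 29.7, 65.9 and 77.4 CPM in the mutant pups, 6.02 ± 0.39 log2 units above chondrocytes, whose mean was 0.611 CPM. Erythroid cells also held *Acp5*, at 74.6 and 11.01 CPM in the WT pups and at 14.2, 0 and 63.2 CPM in the mutant pups. They were above macrophages in pup 1 only, where they held 77 UMIs against 45 in macrophages. No other pup had more than 4 UMIs in erythroid cells, and the difference between these classes was not tested. Osteoblasts held 49.3 CPM in pup 1 and between 0 and 4.23 CPM in the other pups. In pup 1, 17 of the 18 UMIs came from 1 cell, and without it the level was 2.99 CPM. *6530413G14Rik* overlaps *Acp5* on the other strand.

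*Dcstamp* (chromosome 15, 39745930 to 39760938, plus strand) and *Ocstamp* (chromosome 2, 165393760 to 165400405, minus strand) encode membrane proteins required for the fusion of precursors into multinucleated osteoclasts. Only 239 and 407 UMIs of them were counted in all cells. Macrophages held 5 *Dcstamp* UMIs and 22 *Ocstamp* UMIs, the latter at 3.995 CPM and 4.25 ± 0.54 log2 units above chondrocytes. No *Dcstamp* UMI was found in 506 osteoblasts, which allows a share of up to 0.726% of such cells with a UMI (95% Clopper-Pearson).

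**Figure D3:**
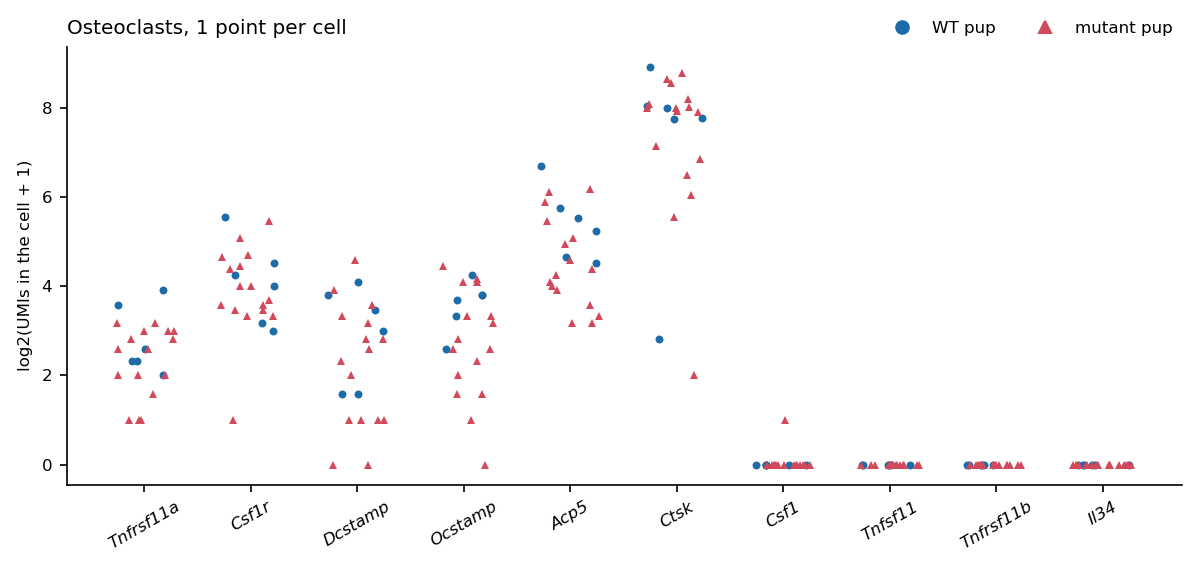
Each point is 1 of the 22 cells of the osteoclast class, placed by the log2(UMIs + 1) of each gene on the vertical axis, with circles for the 6 cells of WT pups and triangles for the 16 of mutant pups. All 22 cells hold UMIs of *Tnfrsf11a*, *Csf1r*, *Acp5* and *Ctsk*, and none holds *Tnfsf11*, *Tnfrsf11b* or *Il34*.

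Osteoclasts were caught rarely, as 22 of 82516 cells (0.0267%): 5 and 1 in the WT pups and 9, 2 and 5 in the mutant pups. They were set by other markers, among which *Atp6v0d2*, a subunit of the acid-secreting proton pump, averaged 2170 CPM and the gelatinase *Mmp9* averaged 9010 CPM, while the calcitonin receptor *Calcr* was at 0 in every pup. The macrophage markers *C1qb* and *Lyz2* were also at 0 in every pup, and the sum over all 12 macrophage markers was 28.5 to 43.0 UMIs per 10000 in osteoclasts against 136 to 151 in macrophages. Every one of the 22 cells held UMIs of *Tnfrsf11a*, *Csf1r*, *Ctsk* and *Acp5*. *Dcstamp* was found in 20 and *Ocstamp* in 21 of them. The class was not uniform: *Ctsk* UMIs per cell ranged from 3 to 482, with a median of 248.

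These cells were the richest source of the effectors. *Ctsk* reached 11010 and 12946 CPM in the WT pups and 12495, 9993 and 9999 CPM in the mutant pups, so that about 1 in 100 of their transcripts was *Ctsk*. *Acp5* was at 2077 and 3133 CPM in the WT pups and at 1820, 846 and 1097 CPM in the mutant pups. *Ocstamp* was at 515 and 768 CPM in the WT pups and at 484, 195 and 346 CPM in the mutant pups. For both of these genes the WT pups lay above the mutant pups, but WT pup 2 is 1 cell and mutant pup 4 is 2 cells, so no test was made. *Dcstamp* was at 388 and 414 CPM in the WT pups and at 210, 260 and 429 CPM in the mutant pups, which overlap.

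The receptors were also high in the osteoclast class. *Tnfrsf11a* was at 334 and 236 CPM in the osteoclasts of the WT pups and at 229, 195 and 256 CPM in those of the mutant pups, above the level in macrophages in every pup. *Csf1r* averaged 915 ± 181 CPM (SD, n = 5) against 749 ± 160 in macrophages. It was the higher in osteoclasts of every pup except pup 2, and this was not tested. Cells positive for *Acp5*, *Dcstamp* and *Ocstamp* together numbered 24 in the data set, of which 20 were in the osteoclast class, 3 in the cells that passed for more than 1 class and 1 among macrophages. Although the 22 cells held 59.8% of *Dcstamp* and 47.7% of *Ocstamp* UMIs, they held 3.54% of *Ctsk* UMIs.

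Promoters from RefSeq, of 300 bases with 250 before and 50 after the start (GRCm38.p6), are described for 5 of the 10 genes, *Tnfsf11*, *Csf1*, *Tnfrsf11a*, *Ctsk* and *Acp5*, the last with 3 starts. For *Tnfrsf11b*, *Csf1r*, *Il34*, *Dcstamp* and *Ocstamp* no promoter was searched. The promoters of *Ctsk* and *Acp5*, the effectors that were highest together in osteoclasts, and that of *Tnfsf11*, the stromal ligand, are shown 5′ to 3′ on the strand of the gene. Capitals mark matches, on either strand, to GGAAA or its complement TTTCC, the core bound by NFAT, to GAGGAA or TTCCTC, a core bound by PU.1, and to CATGTG or CACATG, an E-box of the MITF type. These factors are known to act in osteoclasts, and a GAGGAA followed by A would also hold a GGAAA.
Ctsk, chr3:95498960-95499259, plus strand: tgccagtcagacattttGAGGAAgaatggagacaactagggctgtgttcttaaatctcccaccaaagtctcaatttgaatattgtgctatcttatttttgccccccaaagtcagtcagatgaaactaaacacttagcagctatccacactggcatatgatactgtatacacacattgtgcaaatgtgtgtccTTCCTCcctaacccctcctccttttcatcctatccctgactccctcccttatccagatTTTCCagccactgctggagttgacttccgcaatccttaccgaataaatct
Acp5, most downstream start, chr9:22130549-22130848, minus strand: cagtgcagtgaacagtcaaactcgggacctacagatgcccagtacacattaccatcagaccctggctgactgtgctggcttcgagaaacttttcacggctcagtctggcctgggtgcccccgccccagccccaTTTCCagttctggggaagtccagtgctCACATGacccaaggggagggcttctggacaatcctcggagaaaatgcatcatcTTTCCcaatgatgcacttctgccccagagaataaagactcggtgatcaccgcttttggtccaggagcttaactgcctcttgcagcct
Tnfsf11, chr14:78307994-78308293, minus strand: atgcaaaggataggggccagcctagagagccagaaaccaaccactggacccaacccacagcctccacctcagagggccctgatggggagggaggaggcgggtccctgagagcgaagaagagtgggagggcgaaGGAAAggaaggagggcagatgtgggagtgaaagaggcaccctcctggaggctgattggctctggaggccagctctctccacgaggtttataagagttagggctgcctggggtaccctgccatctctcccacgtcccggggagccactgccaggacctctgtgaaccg
The *Ctsk* window held 1 NFAT core and 2 PU.1 cores, the *Acp5* window 2 NFAT cores and 1 E-box, and the *Tnfsf11* window 1 NFAT core. Of the promoters not shown, the other *Acp5* starts held 1 NFAT core each and no E-box, that of *Csf1* 3 NFAT cores, and that of *Tnfrsf11a* no match. Of the 32851 promoters of the same length that were searched, 61.3% held an NFAT core, 28.3% a PU.1 core and 14.2% the E-box. Neither TGTGGT or its complement ACCACA, the RUNX core, nor TGANTCA, the AP-1 motif, was found in any of the 7 promoters of these genes, against 16.8% and 7.81% of all promoters searched. A match is a description of the letters and not a bound site.

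Along the growth plate, the CPM of the decoy, *Csf1* and *Ctsk* was lower in the 760 *Col10a1*-high chondrocytes. These are the hypertrophic cells next to which osteoclasts work. *Csf1* was at 12.0 and 9.23 CPM in the *Col10a1*-high cells of the WT pups and at 6.65, 11.1 and 18.1 CPM in those of the mutant pups. It fell by 2.12 ± 0.12 log2 units against all other chondrocytes (adjusted p = 2.28e-15). *Tnfrsf11b* was at 67.1 and 36.7 CPM in the WT pups and at 29.2, 31.0 and 37.2 CPM in the mutant pups, a change of -1.32 ± 0.17 log2 units (adjusted p = 0.00106). *Ctsk* changed by -1.45 ± 0.08 log2 units (adjusted p = 2.77e-16). For all 3 genes each pup's *Col10a1*-high value lay below that of its other chondrocytes. *Tnfsf11* held 21 UMIs in these cells and its difference was -0.85 ± 0.48 log2 units (adjusted p = 0.148, 95% interval -1.78 to 0.09). It was called without WT pup 2 (-1.72, adjusted p = 0.00381) and, barely, without the low-count filter (adjusted p = 0.0488). In all, 4 of 10 genes were called, all lower, where 53.8% of all genes tested were called. The fourth, *Tnfrsf11a*, had 5 UMIs in these cells and an adjusted p of 0.0426, which rose above 0.05 without any 1 pup. The *Col10a1*-high cells had a median of 26989 UMIs per cell against 8182 in the other chondrocytes. A lower CPM in them therefore need not mean fewer UMIs of the gene per cell, which was not compared. In addition, 339 cells lay within 2-fold of the *Col10a1* threshold.

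**Figure D4:**
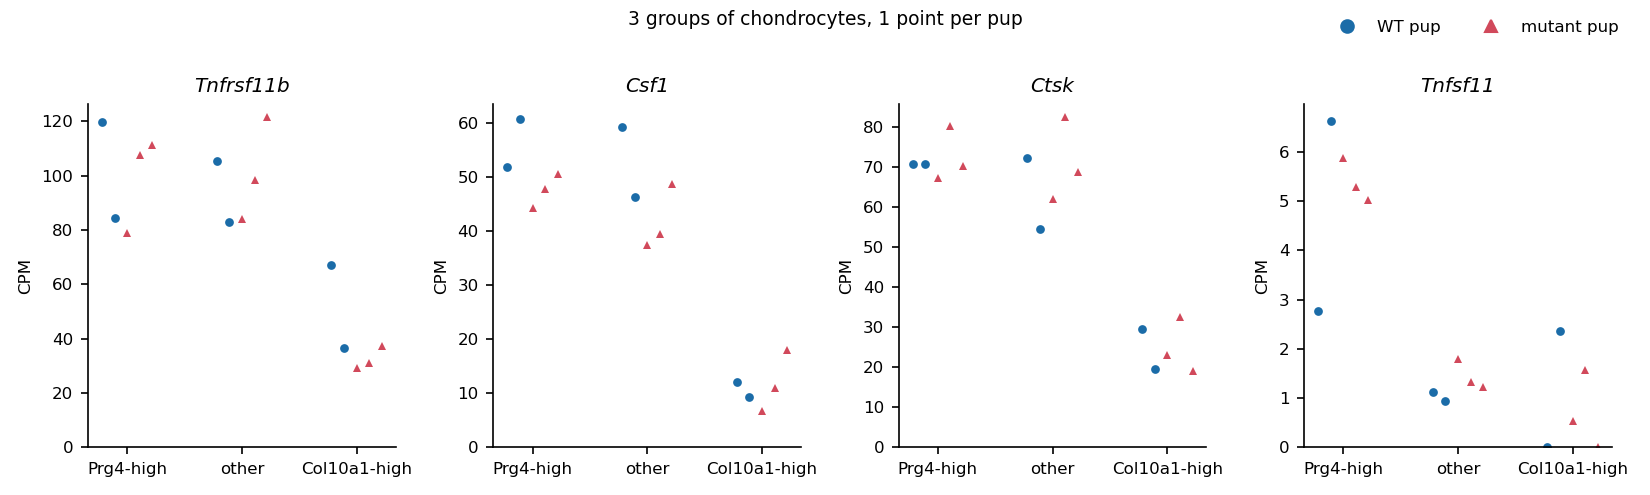
Panels show the level in CPM of 4 genes in the *Prg4*-high, other and *Col10a1*-high chondrocytes, with 1 point per pup, circles for WT and triangles for mutant pups. *Tnfrsf11b*, *Csf1* and *Ctsk* are lowest in the *Col10a1*-high cells of every pup, and *Tnfsf11* is highest in the *Prg4*-high cells of every pup.

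The study asked what the activated channel changes in growth plate cells, and the members were therefore compared between the 3 mutant and 2 WT pups, with the pup as the replicate. In none of the classes did edgeR call any gene at an adjusted p of 0.05: 0 of 19033 genes in chondrocytes, 0 of 8063 in osteoblasts, 0 of 13409 in perichondrial cells, 0 of 7778 in macrophages and 0 of 21024 in all cells, so that 0% of all genes and 0 members were called. At an unadjusted p of 0.05 the counts were 1165, 287, 794, 399 and 1169 genes, and DESeq2 called 44, 4, 28, 2 and 48. The members below are described by their values on that background.

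The osteoblast *Tnfsf11* values listed above, 10.9 and 38.5 CPM in the WT pups against 46.8 to 59.2 CPM in the mutant pups, did not overlap. The difference was 0.87 ± 0.38 log2 units (unadjusted p = 0.0392, adjusted p = 1.00), and it rests on few cells. It was 0.45 log2 units without WT pup 1 and 2.37 without WT pup 2. The limit of 6000 genes per cell had removed 1 osteoblast of WT pup 2 with 62 *Tnfsf11* UMIs. With it the level in that pup was 83.0 CPM, above every mutant pup, and the difference was -0.051 log2 units. In perichondrial cells, where 1185 UMIs were counted, the WT pups lay below the mutant pups with pup 5 close to pup 2, and the difference was 0.84 ± 0.24 log2 units (unadjusted p = 0.00840, adjusted p = 0.814). It reached an adjusted p of 2.93e-04 without the low-count filter. With a term for the pups with *Xist* it was 0.37 log2 units. Both of those pups are mutants, so this value rests on pup 5 against the WT pups. In chondrocytes the difference was 0.40 ± 0.19 log2 units (adjusted p = 0.798).

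Osteoblast *Tnfrsf11b*, at 98.5 and 92.0 CPM in the WT pups against 40.5 to 44.0 CPM in the mutant pups, did not overlap. The difference was -1.13 ± 0.23 log2 units (unadjusted p = 4.06e-04, adjusted p = 0.962). A single cell held 22 of the 36 UMIs in pup 1 and 59 of the 122 in pup 2. Without the osteoblast with most *Tnfrsf11b* UMIs in each pup, the levels were 41.1 and 48.4 CPM in the WT pups and 37.8, 29.0 and 30.4 CPM in the mutant pups. The groups still did not overlap, but the log2 ratio of their means was -0.47. The share of osteoblasts with a *Tnfrsf11b* UMI, thinned to 3000 UMIs, was 8.70% and 8.97% in the WT pups and 8.73%, 6.59% and 6.90% in the mutant pups, which overlapped. The cartilage markers, of the class with most *Tnfrsf11b* UMIs, summed to 49.5 and 47.2 UMIs per 10000 in the osteoblasts of the WT pups and to 22.5, 27.6 and 54.6 in those of the mutant pups, with all 10 detected in each pup. Tendon and ligament markers summed in osteoblasts to 16.1 and 9.27 in the WT pups and to 6.599, 7.58 and 7.03 in the mutant pups, which did not overlap, with 5 of 5 detected. The part of either in the difference was not tested.

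The ratio of the pair followed from these values. In osteoblasts there were 0.111 and 0.418 *Tnfsf11* UMIs per *Tnfrsf11b* UMI in the WT pups and 1.06, 1.46 and 1.29 in the mutant pups. The mean log2 ratio was 2.55 higher in the mutant pups (2-sided exact permutation test, p = 0.1, the smallest that 10 groupings of 5 pups allow, adjusted p = 0.5 over 5 ratios). In perichondrial cells the ratio was 0.382 and 0.517 in the WT pups and 1.16, 1.26 and 0.591 in the mutant pups (exact permutation p = 0.2, adjusted p = 0.5). Both WT pups were below all mutant pups in both classes. In chondrocytes the genotypes overlapped, and the log2 difference was 0.28 (exact permutation p = 0.5). Without the osteoblast with most *Tnfrsf11b* UMIs in each pup the ratio was 0.286 and 0.810 in the WT pups and 1.25, 2.07 and 1.76 in the mutant pups. With no upper limit on genes per cell, WT pup 2 rose to 0.919 and the log2 difference was 1.98.

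**Figure D5:**
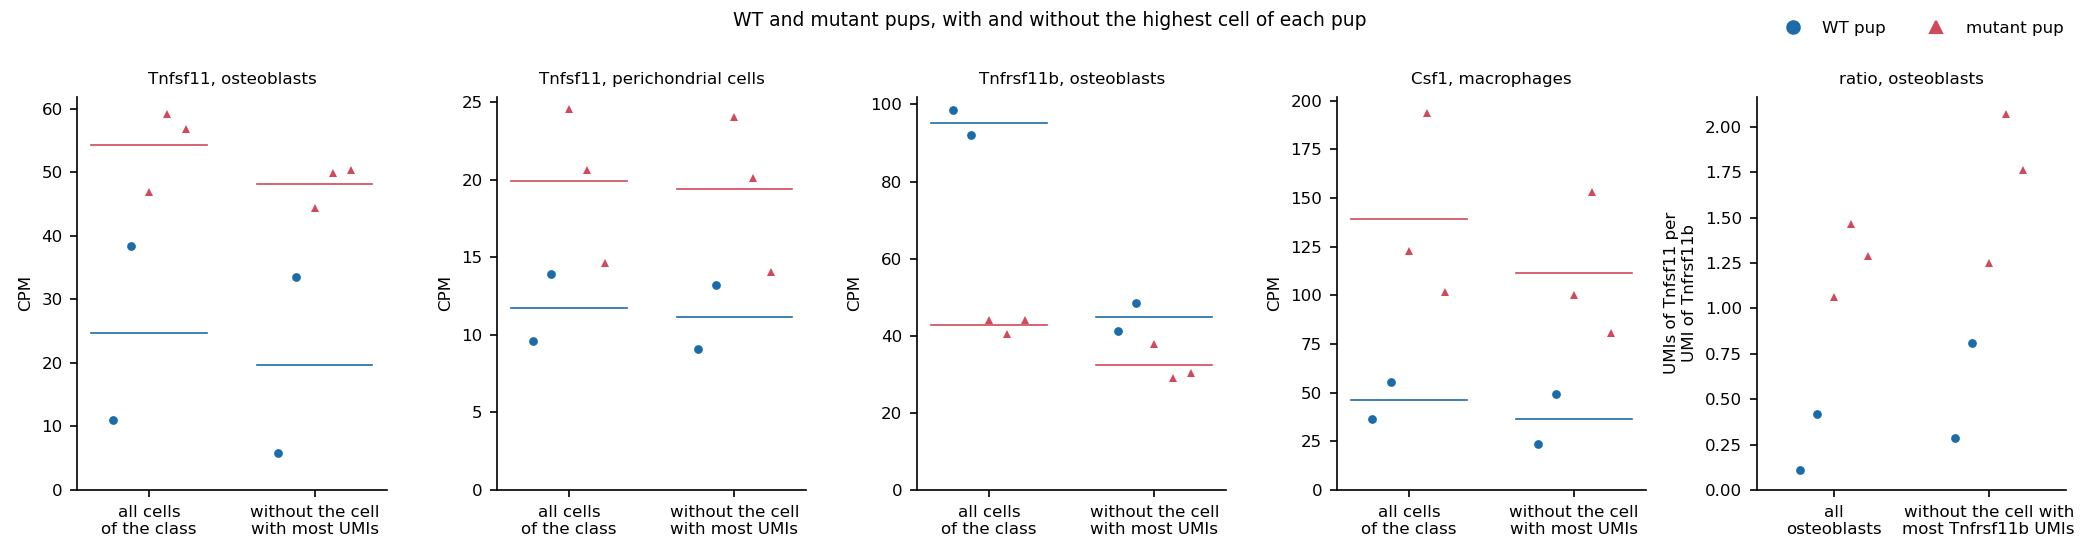
The first 4 panels give the level in CPM of *Tnfsf11* in osteoblasts and perichondrial cells, *Tnfrsf11b* in osteoblasts and *Csf1* in macrophages, per pup, with all cells of the class and without the cell that held most UMIs of that gene, and lines at the means of WT (circles) and mutant (triangles) pups. The last panel gives the UMIs of *Tnfsf11* per UMI of *Tnfrsf11b* in osteoblasts. Leaving out 1 cell per pup brings the WT level of *Tnfrsf11b* from 98.5 and 92.0 CPM down to 41.1 and 48.4 CPM, while *Csf1* in macrophages of the mutant pups stays above both WT pups.

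Macrophage *Csf1* was the other member with a wide difference. It was at 36.4 and 55.5 CPM in the WT pups and at 123, 194 and 102 CPM in the mutant pups, and both WT pups were below all mutant pups. The difference was 1.56 ± 0.29 log2 units (unadjusted p = 2.85e-04, adjusted p = 0.416 in edgeR). DESeq2 gave 1.60 with an adjusted p of 0.0220, and edgeR without the low-count filter gave an adjusted p of 1.44e-08. With a term for the pups with *Xist*, which leaves pup 5 alone against the WT pups, it was 1.09 log2 units. Without the macrophage with most *Csf1* UMIs in each pup, the levels were 23.7 and 49.5 CPM in the WT pups and 100.1, 153 and 80.6 CPM in the mutant pups. The share of macrophages with a *Csf1* UMI was 18.5% and 20.8% in the WT pups and 15.9%, 30.1% and 21.9% in the mutant pups, which overlapped. Thinned to 3000 UMIs, it was 1.54% and 8.41% in the WT pups and 11.2%, 18.8% and 18.0% in the mutant pups, which did not. Perichondrial markers, which come from a *Csf1*-rich class, summed in macrophages to 98.1 and 47.2 UMIs per 10000 in the WT pups and to 52.3, 85.1 and 37.4 in the mutant pups, and the genotypes overlapped. Endothelial markers, of another class with high *Csf1*, were at 0.219 and 0.273 UMIs per 10000 in the macrophages of the WT pups and at 0.291, 0.505 and 0.326 in those of the mutant pups, with 2 to 7 of 7 detected, so they moved in the direction of *Csf1*. Their part in the difference was not tested.

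Counting all members, the groups did not overlap for 3 of 9 in chondrocytes (23.3% of all genes tested), 2 of 4 in osteoblasts (21.2%), 3 of 7 in perichondrial cells (25.8%), 2 of 5 in macrophages (22.4%) and 0 of 10 in all cells (23.7%). In chondrocytes these were *Tnfsf11*, *Tnfrsf11a* and *Csf1r*, in osteoblasts *Tnfsf11* and *Tnfrsf11b*, in perichondrial cells *Tnfsf11*, *Tnfrsf11b* and *Il34*, and in macrophages *Tnfrsf11a* and *Csf1*. In chondrocytes, where *Csf1r* and *Tnfrsf11a* were lower in the mutant pups, the macrophage markers summed to 0.134 and 0.185 UMIs per 10000 in the WT pups and to 0.107, 0.0774 and 0.0654 in the mutant pups, with 11 or 12 of 12 detected. The osteoblast markers, in the direction of *Tnfsf11*, summed in chondrocytes to 86.9 and 67.4 in the WT pups. In the mutant pups they summed to 91.9, 100.6 and 91.5, with 12 of 12 detected. This list is not particular to osteoblasts: it summed to 793 to 1089 in perichondrial cells and to 1080 to 1437 in osteoblasts. Perichondrial markers summed in chondrocytes to 202 and 148 in the WT pups and to 193, 222 and 200 in the mutant pups, which overlapped. In macrophages, where *Tnfrsf11a* was lower in the mutant pups, the osteoclast markers summed to 3.37 and 0.206 in the WT pups and to 0.164, 0.126 and 0.163 in the mutant pups, with 2 to 4 of 8 detected. The part of these was not tested. For perichondrial *Il34*, whose values are given above, the difference was 0.75 ± 0.31 log2 units (unadjusted p = 0.0410, adjusted p = 0.830). The classes share their pups and libraries, so these counts are not independent of one another. No member's genotype difference was called as different between classes. The lowest adjusted p was 0.495, for *Tnfrsf11b* in osteoblasts against chondrocytes (-1.17 ± 0.26 log2 units), and for *Csf1* in macrophages against chondrocytes it was 0.843 (1.74 ± 0.52).

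Other genes of the pathway, in 4 lists, were read from the same fits, and none of them was called between genotypes in any class or in all cells. RANK signalling and transcription (21 genes) was summed highest in perichondrial cells, where its highest genes were the AP-1 subunit *Fos* at 5044 ± 1164 CPM, the calcium-regulated factor *Nfatc1* at 212 ± 33.9 CPM and the TAK1 adaptor *Tab2* at 189 ± 15.5 CPM (SD, n = 5). The sum there, 4251 to 7317 CPM among pups, overlapped those of chondrocytes (3960 to 6422 CPM) and macrophages (5168 to 6662 CPM). *Fos* made up most of each mean sum: 5044 of 5957 CPM in perichondrial cells, 4420 of 5363 in chondrocytes and 3508 of 5846 in macrophages. Without *Fos* the mean sum was highest in macrophages. Of the 21 genes, 11 were higher and 4 lower in macrophages than in chondrocytes, a share called that is near the 73.1% of all genes, with a median log2 difference of 0.78 against -0.18 for all genes tested. *Nfatc1*, the master regulator of the osteoclast program, was itself higher in chondrocytes (333 ± 41.3 CPM) than in macrophages (106 ± 27.1 CPM), by a log2 difference of -1.93 ± 0.17 (adjusted p = 3.99e-09).

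The co-receptors of osteoclast precursors (12 genes, 4 of which are also class markers) were summed highest in macrophages, where *Fcer1g* was at 2012 ± 215 CPM, *Tyrobp* at 659 ± 89.9 CPM and the fusion-related surface protein *Cd47* at 508 ± 63.9 CPM. The first 2 encode adaptors that pass co-stimulatory signals to calcium, and since they helped to set the macrophage class their level there is no finding. Of the 8 genes that are no marker of any class, 8 were higher in macrophages than in chondrocytes, where 73.1% of all genes were called, with a median log2 difference of 5.39 against -0.18 for all genes. In perichondrial cells 4 of these 8 were higher and 1 lower, where 65.5% of all genes were called.

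The resorption machinery (14 genes, 6 of them class markers) had its highest sum of the 4 main classes in osteoblasts (802 to 1737 CPM among pups, overlapping the 716 to 962 CPM of perichondrial cells), led by the membrane protease *Mmp14* at 730 ± 208 CPM, *Mmp9* at 221 CPM and the carbonic anhydrase *Car2* at 40.4 CPM. *Mmp9* ranged from 21.9 to 834 CPM among pups. *Mmp9* and *Car2* are osteoclast markers, and without them the mean sum in osteoblasts was below that in perichondrial cells. Of the 8 genes that are no marker, 4 were higher in osteoblasts than in chondrocytes and 0 lower, with a median log2 difference of 0.40 against -0.05 for all genes, of which 50.1% were called. In macrophages 6 of the 8 were higher and 2 lower, with a median of 2.41 against -0.18, where 73.1% of all genes were called. The summed osteoclast markers were 2.38 and 0.498 UMIs per 10000 in the osteoblasts of the WT pups and 1.28, 8.49 and 1.43 in those of the mutant pups, with 3 to 6 of 8 detected. In chondrocytes they were 0.0603 to 0.0880 and in osteoclasts 67.4 to 163. Their part in the osteoblast values was not tested.

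The regulators of *Tnfsf11* in stromal cells (22 genes) were summed highest in macrophages, through the chemokine *Ccl2* at 2981 ± 1307 CPM and the inflammatory cytokines *Tnf* at 693 ± 326 CPM and *Il1b* at 178 ± 65.5 CPM. Osteoblasts, where *Tnfsf11* was highest of the 4 main classes, had 13 higher and 3 lower than chondrocytes of the 21 that are no class marker, where 50.1% of all genes were called, with a median log2 difference of 1.61 against -0.05 for all genes tested. Perichondrial cells had 11 of the 21 higher and 4 lower, where 65.5% of all genes were called, with a median of 0.62 against -0.02. *Tnf* in chondrocytes, osteoblasts and perichondrial cells averaged 0.439, 0.348 and 0.424 CPM.

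Over the 12 classes of at least 50 cells, 10779 genes were ranked by the Pearson correlation of their log2(CPM + 1) with each member. These are descriptions over points that share the same 5 libraries. *Tnfsf11* was most like *Bcl11b* (r = 0.92), *Sfrp4* (0.86) and *Spock2* (0.84). Its profile was led by the few lymphoid cells, at a mean of 70.3 CPM, above osteoblasts. *Tnfrsf11b* was most like *Dap* (0.96), *Galnt5* (0.93) and *Ooep* (0.91), and *Csf1* most like *Kidins220* (0.93), *Tmub2* (0.92) and *Rad51d* (0.90). *Tnfrsf11a* was most like *Ch25h* (0.99), *Smagp* (0.95) and *Stab1* (0.95), and *Csf1r* most like *Oas1a*, *Adgre1* and *Wfdc17* (0.99 each). The profiles of both receptors were led by macrophages. *Il34* followed *Ldb3* (0.98), *Pla2r1* (0.97) and *Slc8a2* (0.97), led by pericytes, and *Ctsk* followed *Ptgis* (0.97) and *Ogn* (0.96), led by tendon and ligament cells. *Acp5* was most like *Ap1b1* (0.91), *Kcnn4* (0.88) and *Tbxas1* (0.87). The 22 osteoclasts were too few for this comparison, so *Dcstamp* and *Ocstamp*, at no more than 0.872 and 3.995 CPM in any of the 12 classes, have no profile to compare. By the rule their nearest genes were *Fcna*, *Ppbp* and *Tnip3* for *Dcstamp* and *Ppbp*, *Fcna* and *Cd163* for *Ocstamp* (0.99 each).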

How the data were processed

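The authors deposited, per the labels, matrices of raw UMI counts per gene and cell barcode for 5 pups (BD Rhapsody, build mm10), without normalization. The pipeline's version and annotation are not given in the sources used here. Cells with 200 to 6000 genes and at most 10% mitochondrial UMIs were kept, following the study's methods. Classes were set by UMIs per 10000 and distinct markers: 400 and 5 for chondrocytes, 20 and 3 of 11 for osteoblasts with 100 of *Col1a1*, 600 and 5 for perichondrial cells, 20 and 4 for macrophages, 10 and 3 for osteoclasts with *Atp6v0d2*, *Oscar*, *Calcr* or *Siglec15*. Perichondrial cells also needed *Postn* and *Prrx1*, macrophages a C1q gene and osteoblasts 1 of 6 mineralization genes. A cell that passed for osteoblasts or tendon as well as perichondrial cells, for osteoblasts as well as tendon, or for osteoclasts as well as macrophages was given the first of these. *Col10a1*-high chondrocytes had at least 10 *Col10a1* UMIs per 10000 and *Prg4*-high at least 50 of *Prg4*. No doublet caller was run. Counts were summed per pup and class and tested with edgeR 4.0.16 (TMM, filterByExpr, robust quasi-likelihood fit, adjusted p under 0.05), with DESeq2 1.42.0 as an alternative (R 4.3.3). Other values used Python 3.11.15. Coordinates and overlaps are from GENCODE M21 (GRCm38).

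The members and lists were chosen with earlier results of these data known. Named were the 10 members, for each the 3 most correlated genes (1 of which is not reported here), and from each list the genes called between genotypes and the 3 highest in the class where the list was highest. The fits were first tested on simulated counts. Of 200 planted changes the genotype fit recovered 194 in chondrocytes, 47 in osteoblasts, 191 in perichondrial cells and 106 in macrophages. A lack of calls therefore says less in osteoblasts and macrophages. Settings that were varied were the normalization, the low-count filter, the marker thresholds, the limits on cells, a term for the pups with *Xist* and each pup left out. Each pup was 1 library, so p-values of the genotype tests measure the spread between these pups. Those of the class tests, with the pup as a block, measure how far class differences varied among these pups.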

Additional observations from a re-analysis of the deposited data

Results flagged for a closer look

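In 5 of 31 sets of 5 pups, one for each member and class with enough counts, the highest or lowest pup lay far from the rest by Dixon's criterion, which chance meets in about 1 in 20 sets. *Acp5* in osteoblasts was 49.3 CPM in WT pup 1, the highest, of which 17 of 18 UMIs came from 1 cell. *Tnfrsf11a* in osteoblasts was also highest in WT pup 1, at 19.2 CPM, a pup with 23 osteoblasts. There 5 of the 7 UMIs came from 1 cell, and without it the level was 5.99 CPM. In chondrocytes *Csf1r* was highest in WT pup 2, at 1.78 CPM, and *Dcstamp* in mutant pup 5, at 0.220 CPM. *Csf1r* in perichondrial cells was lowest in mutant pup 5, at 0.434 CPM. The cause was not tested in any of the 5.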

How the results depend on the processing

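Between classes, 418 alternative values of single members kept their direction and side of the threshold, 16 lost the call, 12 gained it and 0 turned after being called. Between genotypes, where edgeR called 0 genes in each class, DESeq2 called 44 in chondrocytes, 4 in osteoblasts, 28 in perichondrial cells, 2 in macrophages and 48 in all cells. Without the low-count filter edgeR called 53, 138 and 45 in osteoblasts, perichondrial cells and macrophages, and with a term for the pups with *Xist* 55 in macrophages. Leaving out 1 pup gave 0 to 18 calls in chondrocytes, 0 to 15 in osteoblasts, 0 to 12 in perichondrial cells, 0 to 6 in macrophages and 0 to 6 in all cells. The highest counts came without WT pup 2 in the first 3 of these and without mutant pup 5 in the other 2. The causes were not tested. Osteoblast *Tnfsf11* turned to -0.051 log2 units with no upper limit on genes per cell, through 1 cell of WT pup 2.

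The log2 difference of the *Tnfsf11* to *Tnfrsf11b* ratio, with 1 pup left out, ran from 1.59 to 3.51 in osteoblasts, 0.88 to 1.44 in perichondrial cells, -0.088 to 0.64 in chondrocytes, -0.035 to 1.14 in all cells and -0.19 to 0.68 in tendon and ligament cells, where it was -0.13 at raised thresholds. In the last 3 it turned without WT pup 1 or mutant pup 3, except that chondrocytes turned without WT pup 1 alone. At raised thresholds the osteoblast ratio could not be computed. Alternatives on single cells were chosen after seeing the data. The number of cells limits the osteoblast comparison, with 2 WT pups and 23 osteoblasts in one of them. No paired analysis was possible because no pup number is shared between the genotypes.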
